A study of Rattus norvegicus with 24 samples.

Results

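Secreted feeding peptides and their receptors were followed through the counts of 2 brain regions: neuropeptide Y (gene Npy), agouti related neuropeptide (Agrp), the CART prepropeptide (Cartpt), the neuropeptide Y receptors Y1, Y2 and Y5 (Npy1r, Npy2r, Npy5r) and the melanocortin 4 receptor (Mc4r). The members were chosen by gene name. All 7 had a row among the 35032 genes of the count table, and each was read in all 24 libraries. The libraries were strand-specific mRNA libraries of young male Sprague-Dawley rats with free access to food, 12 from the hypothalamic paraventricular nucleus (PVN) and 12 from the central nucleus of the amygdala (CEA). In each region there were 3 libraries of each treatment. Normal control rats (NC) were not operated. Hepatectomy rats (HT) had part of the left liver lobe removed. The EA group had the same operation with electroacupuncture at the points Zusanli and Sanyinjiao, and the sham group (SEA) had the operation with needles at the same points and no current. All groups, NC and HT included, were held awake in the restraint device for the same time, and the tissue was taken a day after the last stimulation.

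NPY and AgRP are made together in a class of neurons of the arcuate nucleus, next to the third ventricle, and both drive feeding. NPY acts on the Y receptors, which couple to inhibitory G proteins. Y1 and Y5 mediate much of the feeding response, and Y2 often sits on the nerve endings that release NPY. AgRP blocks the melanocortin 4 receptor, which is activated by a peptide cut from the Pomc product in a neighbouring class of arcuate neurons, and many MC4R neurons lie in the PVN. CART peptides lower food intake and are made in arcuate Pomc neurons and in several other hypothalamic groups. In cortex and amygdala NPY is mostly a product of interneurons, many of which also make somatostatin (Sst).

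The genes lay at the following places in the coordinates of the count table, whose genome build was not settled. Npy was on chromosome 4 from 79557854 to 79565097, Agrp on chromosome 19 from 37526419 to 37528011, Cartpt on chromosome 2 from 30125249 to 30127269, Npy2r on chromosome 2 from 181530832 to 181531978 and Mc4r on chromosome 18 from 62612838 to 62614725. Npy1r (chromosome 16, 24779477 to 24788740, minus strand) and Npy5r (24797124 to 24805079, plus strand) were neighbours that pointed away from each other, 8384 bases apart. None of the 7 rows overlapped another row of the table.

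The 250 bases upstream of the start are shown for the pair of peptides whose levels separated the regions most and for the pair of divergent receptor genes. They come from RefSeq on the build GRCr8 and are written 5′ to 3′ on the strand of the gene. Capitals mark a cAMP response element, TGACGTCA, or its shorter form TGACG on either strand.
Cartpt (chr2:32991236-32991485, minus strand): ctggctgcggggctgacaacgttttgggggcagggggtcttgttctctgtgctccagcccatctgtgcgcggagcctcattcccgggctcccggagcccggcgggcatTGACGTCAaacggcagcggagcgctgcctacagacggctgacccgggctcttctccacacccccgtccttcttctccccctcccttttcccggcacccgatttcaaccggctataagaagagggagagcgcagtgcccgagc
Agrp (chr19:50359498-50359747, minus strand): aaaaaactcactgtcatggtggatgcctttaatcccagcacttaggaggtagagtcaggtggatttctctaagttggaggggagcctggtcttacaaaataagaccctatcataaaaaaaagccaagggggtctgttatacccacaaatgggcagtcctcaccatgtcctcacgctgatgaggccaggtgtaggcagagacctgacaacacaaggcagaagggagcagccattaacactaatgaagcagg
Npy1r (chr16:27813388-27813637, minus strand): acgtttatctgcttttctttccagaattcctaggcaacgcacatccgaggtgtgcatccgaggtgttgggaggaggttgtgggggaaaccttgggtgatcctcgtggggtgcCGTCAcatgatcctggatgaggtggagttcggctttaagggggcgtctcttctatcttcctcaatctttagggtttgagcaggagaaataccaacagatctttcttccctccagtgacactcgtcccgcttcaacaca
Npy5r (chr16:27821805-27822054, plus strand): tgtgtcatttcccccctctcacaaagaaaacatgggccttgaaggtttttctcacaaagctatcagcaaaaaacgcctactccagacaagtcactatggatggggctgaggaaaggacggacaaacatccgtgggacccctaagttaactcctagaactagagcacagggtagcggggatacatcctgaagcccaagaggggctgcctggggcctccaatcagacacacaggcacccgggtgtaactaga
The Cartpt window held the full element at 142 to 135 bases before the start, and its GC content was 65.6%. Of 33465 rat promoter windows of the same length, 1.59% held TGACGTCA on either strand, and their median GC content was 51.2%. The Npy1r window held TGACG on its reverse strand, at 138 to 134 bases before the start, as did 18.2% of all windows on either strand, those with the full element among them. TATAAA (12.9% of all windows), the forkhead motif GTAAACA (3.21%), the STAT motif TTCNNNGAA (7.67%) and the E-box CACGTG (5.59%) were searched on both strands as well. Their letters were not found in these 4 windows or in that of Npy.

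Total counts ran from 13152772 to 18607032 per library. Levels are given as CPM, the counts of a gene scaled to the same library total with TMM factors. As a check of the dissections, Oxt and Avp, the hormones of the magnocellular PVN, had medians of 564 and 281 CPM in the PVN libraries against 58.1 and 23.4 CPM in the CEA libraries. Ppp1r1b (DARPP-32) and Drd1, genes of striatum-like neurons such as those of the CEA, had medians of 2000 and 99.5 CPM in the CEA against 102 and 4.96 CPM in the PVN. The PVN libraries also held Pomc of the arcuate nucleus (13.5 to 64.9 CPM) and Hcrt of the lateral hypothalamus (140 to 298 CPM), both markers of neighbouring hypothalamic areas. The CEA libraries ranged from 13.3 to 450 CPM in the summed level of 7 markers of excitatory neurons of cortex, hippocampus and basolateral amygdala, and 3 of them (NC replicate 2, EA replicate 1, SEA replicate 2) had 374 to 1780 CPM of choroid plexus markers against 6.66 to 25.3 CPM in the others. In such bulk samples, fewer cells of a type and less RNA per cell cannot be told apart.

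Npy was almost without counts in both regions. Its row held 17 counts over the 12 PVN libraries and 20 over the 12 CEA libraries. The PVN counts were 3, 0 and 3 in the NC group, 1, 1 and 4 after HT, 0, 1 and 2 with EA and 1, 0 and 1 with SEA. The CEA counts were 1, 0 and 2 in the NC group, 5, 2 and 7 after HT, 1, 0 and 0 with EA and 0, 0 and 2 with SEA. No library had more than 0.42 CPM, and the 3 PVN and 5 CEA libraries at 0 allow up to 3 counts each, which covers counting error only. Sst, which shares interneurons with Npy, had 109 to 248 CPM in the same CEA libraries. Npy passed the filter on low counts in no comparison, so edgeR's test was not run on it; only fits without that filter and correlations included it.

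Another row of the table, chosen after its values were seen, bears on how the Npy row can be read. LOC100912228, described in the table as pro-neuropeptide Y-like, lay on the same strand of chromosome 4 from 79573998 to 79581208, 8901 bases past the end of Npy. It held 6 to 52 counts in 22 of the 24 libraries, 313 counts in PVN NC replicate 3 and 395 in PVN EA replicate 2. The nearest value below these in the PVN was 46 counts. How reads that match several places were counted is not stated, so the counts of both rows are uncertain, and the Npy row cannot be read as the level of Npy mRNA. Pmch of the lateral hypothalamus and Cldn5 of vessels were also listed at 0 in every library.

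**Figure D1:**
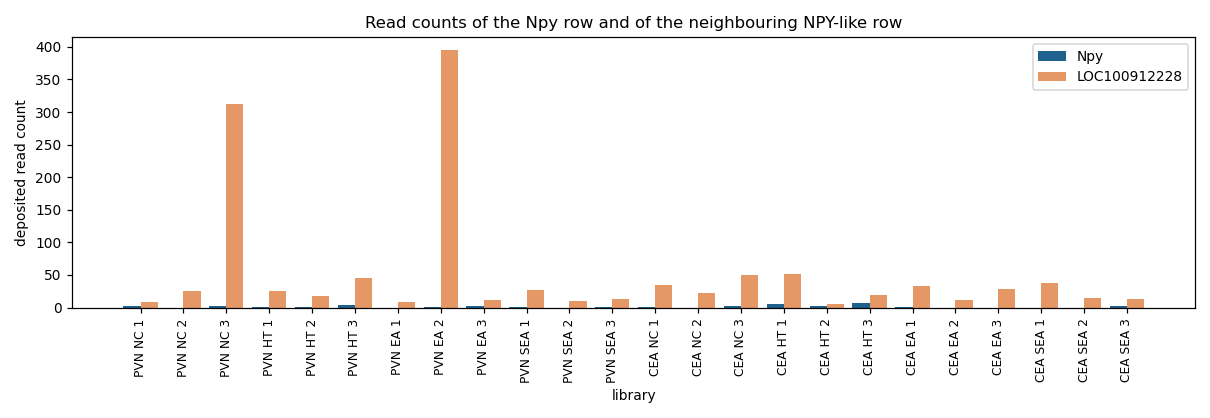
Deposited read counts (y axis, linear) of the Npy row and of LOC100912228 in each of the 24 libraries (x axis). Npy reached at most 7 counts, and LOC100912228 stood at 313 and 395 counts in PVN NC 3 and PVN EA 2 against at most 52 elsewhere.

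Agrp was found mainly in the PVN libraries. In the PVN its levels were 11.7, 9.32 and 11.9 CPM in the NC group, 6.29, 5.46 and 13.5 CPM after HT, 10.1, 7.69 and 7.45 CPM with EA and 9.82, 0.841 and 5.63 CPM with SEA. SEA replicate 2, with 13 counts, stood far below the other 11 PVN libraries, which held 85 to 227 counts. In the CEA all 12 libraries lay between 0.177 and 1.73 CPM, from 3 to 27 counts. Only PVN SEA replicate 2 fell within the CEA range.

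Leaving aside Npy, whose row cannot be read as its level, Cartpt was the most abundant of these genes per kilobase of transcript in both regions. Its levels in the PVN were 243, 144 and 147 CPM in the NC group, 107, 124 and 150 CPM after HT, 148, 140 and 150 CPM with EA and 108, 111 and 136 CPM with SEA. The CEA libraries held 21.7, 4.67 and 4.11 CPM in the NC group, 5.03, 12.3 and 9.97 CPM after HT, 18.7, 13.8 and 14.3 CPM with EA and 15.0, 15.2 and 8.75 CPM with SEA. The lowest PVN library was above the highest CEA library, and the CEA NC group alone spanned the whole CEA range.

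Npy1r, the receptor with the highest median per kilobase in both regions, varied little in the PVN and widely in the CEA. The PVN libraries ran from 16.8 to 25.6 CPM with a median of 21.8. In the CEA the levels were 7.5, 16.1 and 19.6 CPM in the NC group, 3.53, 17.2 and 22.8 CPM after HT, 7.77, 15.8 and 9.13 CPM with EA and 9.16, 5.71 and 19.5 CPM with SEA. The highest CEA library was 6.48 times the lowest, against 1.52 times in the PVN. Npy2r had 5.73 to 10.5 CPM in the PVN (median 8.22) and 0.795 to 4.88 CPM in the CEA (median 2.54), with no overlap between the regions. Npy5r had 4.12 to 9.51 CPM in the PVN (median 5.68) and 2.13 to 4.18 CPM in the CEA (median 2.52).

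Mc4r, the receptor that AgRP blocks, was evenly expressed in the PVN, at 3.48 to 5.75 CPM with a median of 4.03. In the CEA its levels were 8.16, 1.48 and 3.05 CPM in the NC group, 10.5, 7.62 and 5.83 CPM after HT, 7.56, 3.68 and 6.07 CPM with EA and 4.75, 8.91 and 1.89 CPM with SEA. The coefficient of variation over the 12 libraries was 13.6% in the PVN and 49.7% in the CEA. For Npy1r it was 12.8% in the PVN and 49.7% in the CEA, and for Npy5r 23.6% and 26.8%.

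**Figure D2:**
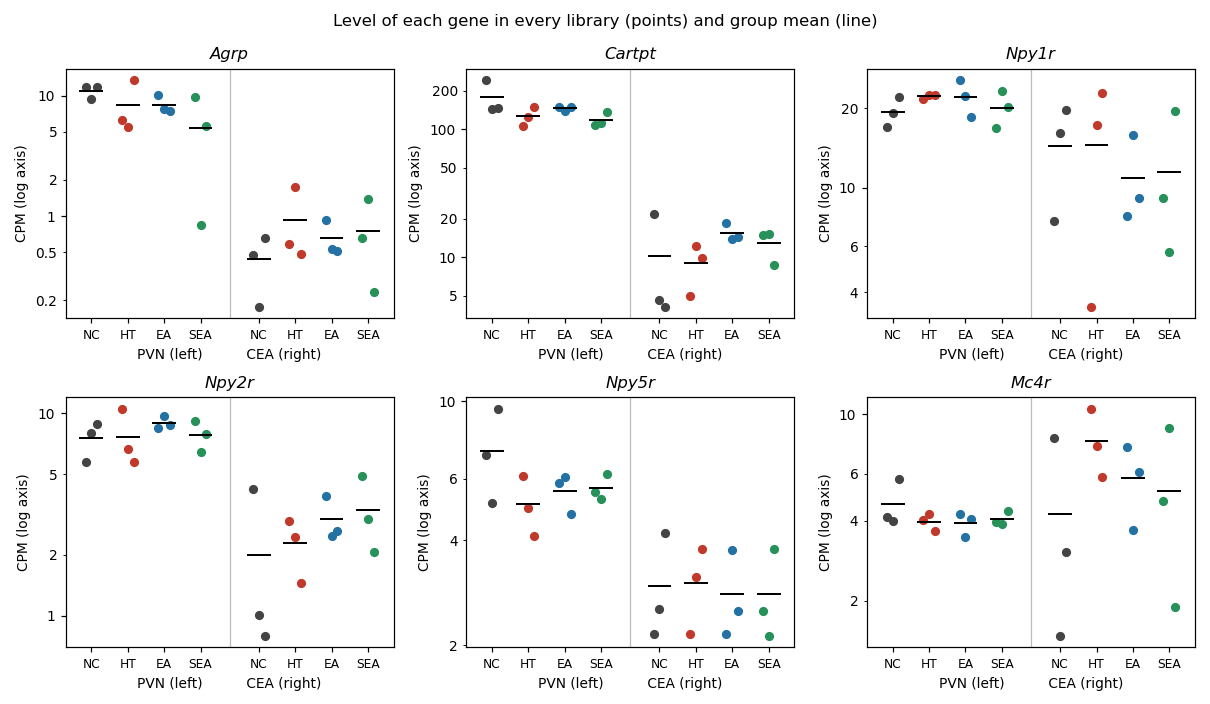
CPM on a log axis for 6 genes in every library, by treatment (NC, HT, EA, SEA) in the PVN (left of each panel) and the CEA (right); points are libraries and lines are means of 3. Cartpt and Npy2r separate the regions without overlap, and Npy1r and Mc4r spread over 3.53 to 22.8 CPM and 1.48 to 10.5 CPM in the CEA.

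The order of the genes was compared on CPM per kilobase of the gene length in the table. Npy is placed by its row, which cannot be read as the level of Npy mRNA. In the PVN the medians were 169 for Cartpt, 13.1 for Agrp, 7.5 for Npy1r, 7.17 for Npy2r, 2.35 for Npy5r, 2.13 for Mc4r and 0.0992 for Npy. Cartpt stood above Agrp, Npy2r above Npy5r and Mc4r above Npy in all 12 libraries without overlap of the ranges. Agrp and Npy1r, Npy1r and Npy2r, and Npy5r and Mc4r overlapped in range, and the order of the medians held in 11, 6 and 8 of 12 libraries. In the CEA the medians were 15.5 for Cartpt, 4.3 for Npy1r, 3.15 for Mc4r, 2.22 for Npy2r, 1.05 for Npy5r, 0.866 for Agrp and 0.109 for Npy. All 6 neighbours in that order overlapped in range. Agrp was next below Cartpt in the PVN and just above the Npy row in the CEA.

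The regions were compared over all treatments, with treatment as a term in the fit and negative log2 fold changes for genes lower in the CEA. The 12 libraries of each region were treated as independent. The methods say that brain samples came from different animals but speak of 12 rats in all, so both regions may still share rats. Of the 6 members tested, 5 were lower in the CEA at an adjusted p under 0.05 in edgeR's quasi-likelihood test, against 29.4% of all 17768 genes tested in that direction and 56.3% in either. Both peptides stood out in size. Cartpt was 12-fold higher in the PVN (log2 fold change -3.58, SE 0.23, edgeR adjusted p = 6.33e-12), and Agrp was 11.6-fold higher in the PVN (log2 fold change -3.54, SE 0.35, edgeR adjusted p = 8.74e-09).

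The Y receptors differed less. Npy2r had a log2 fold change of -1.61 (SE 0.21, edgeR adjusted p = 7.85e-07), Npy5r of -1.01 (SE 0.14, edgeR adjusted p = 2.56e-06) and Npy1r of -0.72 (SE 0.22, edgeR adjusted p = 0.00923). Mc4r was the only tested member with a positive estimate, 0.45 (SE 0.24, edgeR adjusted p = 0.11), and its 95% interval ran from -0.04 to 0.94. The libraries of the regions did not overlap for 2 of the 6 members, Cartpt and Npy2r, against 14.3% of all genes. The same 5 members were lower in the CEA without the 3 CEA libraries rich in choroid plexus markers, left out after their values were seen, and Npy1r then stood at -0.6 with an edgeR adjusted p of 0.0349.

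In the NC rats alone, 3 of the 6 members were lower in the CEA in edgeR's test (Agrp, Cartpt and Npy5r), against 13.7% of 16748 genes in that direction and 26.4% in either. The log2 fold change was -4.64 for Agrp (SE 0.38, edgeR adjusted p = 0.000582), -4.13 for Cartpt (SE 0.66, adjusted p = 0.00495) and -1.29 for Npy5r (SE 0.34, adjusted p = 0.0293). Agrp, at 3 to 10 counts in the CEA libraries of NC, passed the filter through the PVN libraries only. Npy2r had -1.91 (SE 0.59, edgeR adjusted p = 0.0503), Npy1r -0.43 (SE 0.32, adjusted p = 0.362) and Mc4r -0.13 (SE 0.56, adjusted p = 0.883). The NC groups did not overlap for Agrp, Cartpt, Npy2r and Npy5r, 4 of 6 members against 45.3% of all genes. Npy5r lost its call when any 1 of 4 libraries was left out, PVN NC replicate 1 or 3 or CEA NC replicate 1 or 2, with edgeR adjusted p values of 0.0698 to 0.107. Without CEA NC replicate 1, Npy2r had -3.05 with an edgeR adjusted p of 0.00203, and Cartpt had -5.34 with 0.000342. The share of all genes called in NC was lowest when CEA NC replicate 3 was left out (14.3%) and highest when PVN NC replicate 2 was (36.1%).

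**Figure D3:**
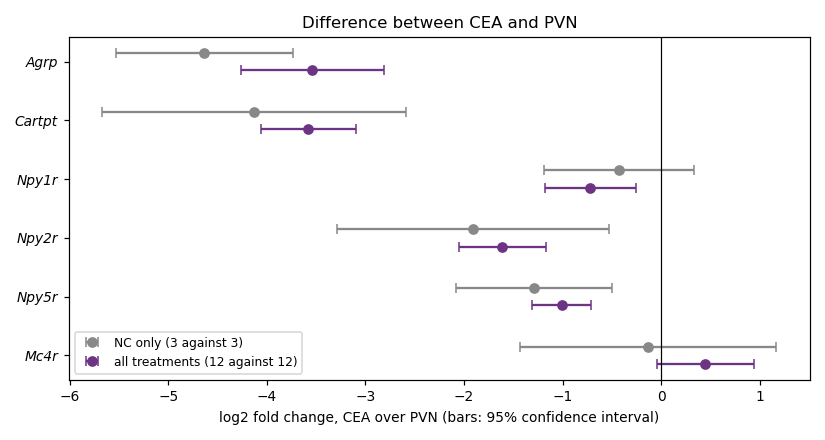
Log2 fold change of the CEA over the PVN (x axis) for 6 genes, in NC alone (grey, 3 against 3 libraries) and over all treatments (purple, 12 against 12); bars are 95% confidence intervals. Agrp and Cartpt lie near -3.5 over all treatments, the Y receptors between -0.72 and -1.61, and the interval of Mc4r includes 0.

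Cartpt and Agrp had higher means in the PVN within each treatment. The ratio of the PVN mean to the CEA mean for Cartpt was 17.5 in the NC group, 14 after HT, 9.38 with EA and 9.13 with SEA, with no overlap of the libraries in any of them. For Agrp it was 24.9, 9.04, 12.7 and 7.16 in the same order, with an overlap in SEA only. Npy2r and Npy5r were also without overlap in all 4 treatments, at ratios of 2.35 to 3.77 and 1.67 to 2.44. Npy1r was without overlap in EA only. Mc4r was higher in all 3 CEA libraries than in all 3 PVN libraries in HT, with means of 7.98 and 3.96 CPM, and overlapped in the other treatments. Such separation was common among all genes: the share was 43.8% for HT, 44.7% for EA and 48.1% for SEA.

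The comparisons of treatments asked whether partial hepatectomy, electroacupuncture or the needles alone moved these genes within a region. No member passed an adjusted p of 0.05 in edgeR's test in any of the 8 pairwise comparisons, or with DESeq2. Among all genes tested, the share called was 0.012% for HT against NC and 0.0961% for EA against HT in the PVN, and 0% in the other 6. The share in PVN HT against NC rested on the libraries included and was 20.2% without PVN NC replicate 2, where no member was called, and that in PVN EA against HT ran from 0% to 0.166% with 1 library left out and was 0.405% in DESeq2. In the PVN, 6 members were tested in each comparison. Their log2 fold changes ran from -0.51 to 0.19 in HT against NC, from -0.01 to 0.24 in EA against HT, from -0.63 to 0.16 in SEA against HT and from -0.05 to 0.62 in EA against SEA. In the CEA, where Agrp passed the filter in SEA against HT only, they ran from -0.13 to 0.95, from -0.48 to 0.76, from -0.66 to 0.51 and from -0.14 to 0.28 in the same order. At an unadjusted p under 0.05 in edgeR, there was 1 member in PVN EA against SEA (5.21% of all genes) and 1 in CEA EA against HT (3.19% of all genes), Cartpt in both. There were 0 members in PVN HT against NC (11% of all genes), PVN EA against HT (5.67%) and PVN SEA against HT (4.38%), and 0 in CEA HT against NC (3.75%), CEA SEA against HT (3.07%) and CEA EA against SEA (1.99%). At the same unadjusted threshold DESeq2 gave Cartpt in PVN HT against NC (8% of all genes) and PVN EA against SEA (2.68%), and Cartpt and Npy in CEA EA against HT (2.68%), with Npy at 0 to 7 counts. In the edgeR fit of all 4 groups, PVN HT against NC gave Cartpt (-0.49, unadjusted p = 0.0225) and Npy5r (-0.51, unadjusted p = 0.0416), against 22.2% of all genes. Without the filter on low counts edgeR added Cartpt in PVN HT against NC (unadjusted p = 0.0311, 10.3% of all genes) and PVN EA against HT (0.044, 5.04%), and Npy in CEA EA against HT (0.0205, 3.4%). With the replicate number as a block, Mc4r had a log2 fold change of 1.18 in CEA HT against NC (SE 0.39, edgeR unadjusted p = 0.0224, adjusted p = 0.749), against 6% of all genes, and it was higher after HT in all 3 same-numbered pairs.

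Single libraries moved these estimates, while no member passed an adjusted p of 0.05 in any pairwise comparison with 1 library left out. With 1 library left out, the log2 fold changes spanned -1.38 to 1.37 in the PVN, both for Agrp without SEA replicate 1, and -1.29 to 1.84 in the CEA, both for Mc4r. Without CEA NC replicate 1, Cartpt in CEA HT against NC turned from -0.13 to 1.06 (edgeR unadjusted p = 0.0345), Npy2r moved from 0.21 to 1.34 (unadjusted p = 0.0288) and Mc4r from 0.95 to 1.84 (unadjusted p = 0.00398), against 3.75% of all genes at that threshold. Without PVN HT replicate 3, Agrp moved from -0.38 to -0.9 in PVN HT against NC (edgeR unadjusted p = 0.00317, 6.04% of all genes) and from -0.01 to 0.52 in PVN EA against HT (unadjusted p = 0.0255, 8.07%). In the latter, Cartpt then moved from 0.21 to 0.34 (edgeR unadjusted p = 0.0024). In PVN HT against NC, Cartpt had -0.49 with all libraries and an unadjusted p under 0.05 in 3 of 6 edgeR fits with 1 library left out, at -0.62 without NC replicate 2 (0.0229), -0.61 without NC replicate 3 (0.0419) and -0.63 without HT replicate 3 (0.0436). Npy5r moved from -0.51 to -0.71 without PVN NC replicate 2 (edgeR unadjusted p = 0.0173), where 35.4% of all genes were under that threshold. Without PVN HT replicate 1, Npy2r in PVN EA against HT moved from 0.24 to 0.54 (edgeR unadjusted p = 0.00942, 5.12% of all genes). Npy1r in CEA EA against HT, -0.43 with all libraries, was -0.89 without HT replicate 1 (edgeR unadjusted p = 0.0237, 8.54% of all genes), and Mc4r in CEA SEA against HT, -0.66, was -1.29 without SEA replicate 2 (unadjusted p = 0.0279, 2.7%). Npy1r in PVN SEA against HT was -0.27 without SEA replicate 2 (edgeR unadjusted p = 0.0438, 5.22% of all genes), and Agrp in PVN EA against SEA reached an unadjusted p of 0.0439 without SEA replicate 1 (4.32%). Summed tissue markers also differed between PVN NC and HT. Without overlap, among others, were those of arcuate nucleus (119 to 134 and 92.5 to 110 CPM), tanycytes and ependyma (30.6 to 48.5 and 24 to 25.4), thalamus (568 to 755 and 769 to 883) and blood (313 to 419 and 128 to 242). Those of oligodendrocytes, astrocytes and microglia overlapped. Pomc had -0.49 there (edgeR unadjusted p = 0.0381, 11% of all genes). The part of the dissection in these estimates was not tested.

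Cartpt had group means of 178 ± 56.6 CPM in the NC group, 127 ± 21.6 CPM after HT, 146 ± 5.16 CPM with EA and 118 ± 15.5 CPM with SEA in the PVN (SD, n = 3 each). The EA libraries (140 to 150 CPM) lay above the SEA libraries (108 to 136 CPM) without overlap, at a log2 fold change of 0.31 (SE 0.08, edgeR unadjusted p = 0.00506, adjusted p = 0.917). In the CEA the means were 10.2 ± 10.0 CPM in the NC group, 9.1 ± 3.71 CPM after HT, 15.6 ± 2.72 CPM with EA and 13.0 ± 3.65 CPM with SEA. The EA libraries (13.8 to 18.7 CPM) lay above the HT libraries (5.03 to 12.3 CPM) without overlap, at a log2 fold change of 0.76 (SE 0.32, edgeR unadjusted p = 0.0452, adjusted p = 0.93). This unadjusted p stayed under 0.05 in 1 of 6 fits with 1 library left out, that without HT replicate 2 (1.04), and in edgeR it was 0.0627 with the replicate number as a block and 0.186 in the fit of all 4 groups, whereas that of EA against SEA in the PVN stayed under it in 6 of 6 but was 0.121 in the edgeR fit of all 4 groups (3.11% of all genes). Groups did not overlap for Cartpt in these 2 comparisons, against 10.3% and 9.67% of all genes, and for no member in the other 6. The share of all genes without overlap was 17.2% for HT against NC, 11.3% for EA against HT and 9.88% for SEA against HT in the PVN, and 10.5% for HT against NC, 9.97% for SEA against HT and 6.83% for EA against SEA in the CEA. The summed markers of central amygdala and striatum-like neurons also differed between CEA EA and HT without overlap. They ran from 3060 to 4310 CPM with EA and from 4790 to 7010 CPM after HT, while the other marker sums overlapped. The part of the dissection in the Cartpt difference was not tested.

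The test of any difference among the 4 treatments gave no member at an adjusted p under 0.05 in edgeR in either region, against 0% of all genes in both. In the PVN Cartpt alone had an unadjusted p under 0.05 (edgeR adjusted p = 0.346), against 14.3% of all genes. Without PVN NC replicate 2, Cartpt passed the adjusted threshold in this test (edgeR adjusted p = 0.048), as did 21.4% of all genes, and Npy5r had an unadjusted p of 0.0234 (adjusted p = 0.0863). In the CEA none of the members had an unadjusted p under 0.05 in edgeR (3.33% of all genes), and the adjusted values were all 1. Without CEA NC replicate 1, Cartpt and Npy2r had unadjusted p values of 0.00327 and 0.0137 there in edgeR (3.38% of all genes, adjusted p = 0.997 for both). The interactions, which tested whether the HT effect or the EA effect differed between PVN and CEA, gave no member at an adjusted or an unadjusted p under 0.05 in edgeR, against 0% of all genes at the adjusted threshold and 12.1% (HT effect) and 4.52% (EA effect) at the unadjusted threshold. Without PVN NC replicate 2, 3.93% of all genes passed the adjusted threshold for the HT effect, and again no member did. DESeq2 gave Agrp alone at an unadjusted p under 0.05, in the interaction of the HT effect, against 9.27% of all genes. In edgeR the log2 difference of the HT effects (PVN minus CEA) ran from -1.46 to 0.18 and that of the EA effects from -0.55 to 0.53. Without CEA NC replicate 1 the difference of the HT effects moved from -1.14 to -2.04 for Mc4r (edgeR unadjusted p = 0.00118), from -0.33 to -1.54 for Cartpt (unadjusted p = 0.0075) and from -0.16 to -1.31 for Npy2r (unadjusted p = 0.0269), against 12.7% of all genes at that threshold and with an adjusted p of 0.39 for each. That of Agrp, -1.46, was -1.98 without PVN HT replicate 3 (edgeR unadjusted p = 0.0178, 8.62% of all genes) and -1.78 without CEA HT replicate 3 (0.0388, 15.2%). The difference of the EA effects moved from 0.44 to 0.9 for Npy1r without CEA HT replicate 1 (edgeR unadjusted p = 0.0241, 11.4% of all genes) and from -0.55 to -0.82 for Cartpt without CEA HT replicate 2 (0.0259, 5.93%).

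**Figure D4:**
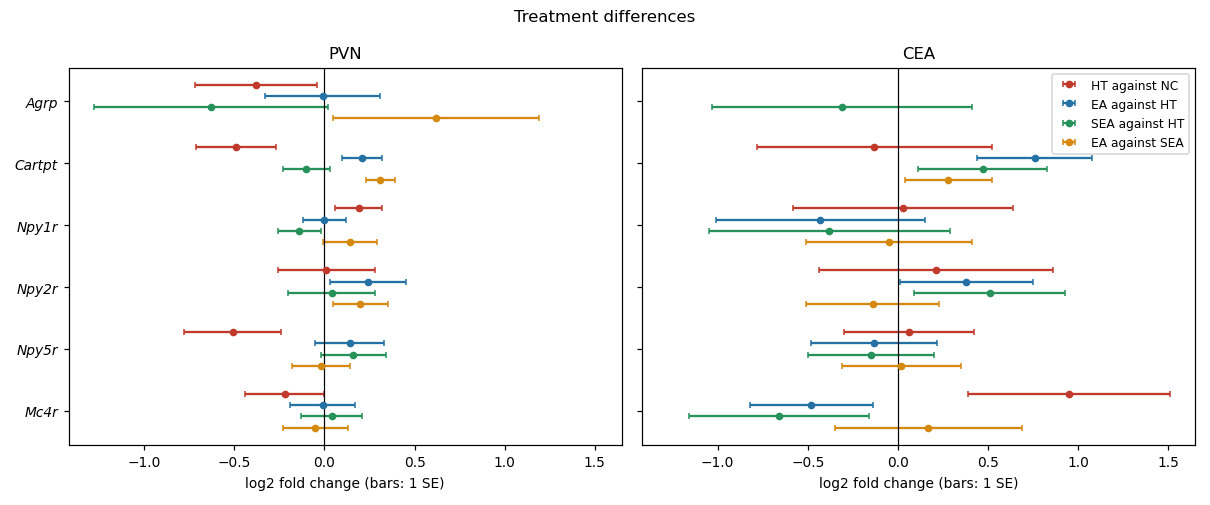
Log2 fold changes (x axis, bars 1 SE) of 6 genes in 4 treatment comparisons in the PVN (left) and the CEA (right); Agrp in the CEA is shown only where it passed the filter. The PVN values lie between -0.63 and 0.62, and the CEA values between -0.66 and 0.95; SEs run from 0.08 to 0.65 in the PVN, the longest for Agrp, and from 0.24 to 0.72 in the CEA.

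Agrp and Pomc, which mark neighbouring classes of arcuate neurons, moved together over the 12 PVN libraries (Pearson r = 0.92, adjusted permutation p = 0.00219; Spearman rho = 0.71, adjusted permutation p = 0.0345; 6 relations adjusted together). PVN SEA replicate 2 was the lowest in both, with 0.841 CPM of Agrp and 13.5 CPM of Pomc, and the Pomc levels of the others ran from 28.4 to 64.9 CPM. Without that library r was 0.74, and without the 2 libraries farthest from the median of Agrp it was 0.75. Agrp also followed the summed level of 8 arcuate markers (r = 0.88, adjusted permutation p = 0.0055; rho = 0.76, adjusted permutation p = 0.0272; r = 0.82 without the 2 farthest; r = 0.88 within treatments). That sum was 64.1 CPM in SEA replicate 2 and ran from 88.7 to 134 CPM in the other PVN libraries. It includes Pomc, its largest member by median (44.5 CPM), so this relation is not separate from that of Agrp with Pomc. Tac3, also in the sum, had medians of 19.9 CPM in the PVN and 18.8 CPM in the CEA. The other members had clearly higher medians in the PVN. The part of arcuate tissue in the Agrp levels was not tested. The summed level of 8 PVN markers in SEA replicate 2, 1260 CPM, was within the range of the others, 476 to 1390 CPM. The lowest, 476 CPM, was that of HT replicate 3, which had the highest Agrp level, 13.5 CPM. All other PVN libraries had at least 947 CPM. With this sum Agrp had r = -0.32 (adjusted permutation p = 0.323), -0.55 within treatments and 0.64 without the 2 libraries farthest from the median of Agrp. Npy5r had r = 0.66 (adjusted permutation p = 0.149) and 0.08 without its 2 farthest libraries.

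Cartpt and Pomc gave no relation past the threshold in the PVN (r = 0.36, adjusted permutation p = 0.324; r = -0.11 within treatments), and neither did Npy and Agrp, with Npy at 0 to 4 counts (r = 0.53, adjusted permutation p = 0.128). With the arcuate marker sum Cartpt had r = 0.43 (adjusted permutation p = 0.319).

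The divergent neighbours Npy1r and Npy5r moved together in the CEA. Over the 12 CEA libraries r was 0.87 (adjusted permutation p = 0.00219) and rho 0.97 (adjusted permutation p = 6e-05, from 1e-05, the smallest that the resampling can give), and r was 0.89 without the 2 libraries farthest from the median of Npy1r. In the PVN r was -0.04 (adjusted permutation p = 0.909). Whether the 2 correlations differ was not tested. Npy in the CEA had r = -0.12 with Sst (adjusted permutation p = 0.857).

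The receptors of the CEA split by their relation to markers of neighbouring tissue, first those of excitatory neurons of cortex, hippocampus and basolateral amygdala. These relations were chosen after the values were seen, as part of 22 relations between members and 2 marker sums in each region. The share of all genes that follow these sums as closely was not computed. The relations therefore cannot be called particular to these receptors. Npy1r rose with the sum of the 7 markers (r = 0.92, adjusted permutation p = 0.00066; rho = 0.89, adjusted permutation p = 0.00572), and so did Npy5r (r = 0.81, adjusted permutation p = 0.00887; rho = 0.84, adjusted permutation p = 0.0125). Npy2r fell with it (r = -0.73, adjusted permutation p = 0.0346; rho = -0.83, adjusted permutation p = 0.0125). Mc4r had r = -0.67 (adjusted permutation p = 0.0628) and rho = -0.71 (adjusted permutation p = 0.0436). Without the 2 farthest libraries r was 0.95 for Npy1r, 0.7 for Npy5r, -0.64 for Npy2r and -0.72 for Mc4r, and within treatments it was 0.94, 0.85, -0.77 and -0.67.

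HT replicate 1 had the lowest marker sum of the CEA, 13.3 CPM, with 3.53 CPM of Npy1r and 10.5 CPM of Mc4r, the lowest and the highest value of these genes. HT replicate 3 had the highest sum, 450 CPM, with 22.8 CPM of Npy1r and 5.83 CPM of Mc4r. Both ends of the range lay in the same treatment group, and the sum spanned 51.9 to 428 CPM within NC, 43.8 to 188 CPM in EA and 83.7 to 213 CPM in SEA. Among these markers, Slc17a7 ran from 7.05 to 302 CPM and Nrn1 from 3.98 to 107 CPM, and Neurod2, Neurod6, Rspo2 and Tbr1 were at 0.131 to 10.7 CPM. Mc4r also rose with the summed level of 11 markers of central amygdala and striatum-like neurons (r = 0.69, adjusted permutation p = 0.055; rho = 0.76, adjusted permutation p = 0.0272; r = 0.92 within treatments). Npy1r and Npy5r had r = -0.6 and -0.54 with that sum (adjusted permutation p = 0.127 and 0.173; -0.83 and -0.74 within treatments), and Npy2r had r = 0.16 (adjusted permutation p = 0.71). Cartpt had r = -0.28 with the excitatory sum (adjusted permutation p = 0.496; rho = -0.59, adjusted permutation p = 0.154), and 1 library moved it, to -0.82 without HT replicate 1 and to -0.09 without NC replicate 3. With the sum of central amygdala markers it had r = -0.03 (adjusted permutation p = 0.924). The sum of the 7 excitatory markers ran from 43.3 to 86.4 CPM in the PVN libraries.

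The summed level of 8 thalamus markers moved with the same receptors. It ran from 113 CPM in HT replicate 1 to 797 CPM in SEA replicate 3 in the CEA, and from 568 to 883 CPM in the PVN. In the CEA it followed the excitatory sum (r = 0.87, adjusted permutation p = 0.00075; rho = 0.78, adjusted permutation p = 0.00573; r = 0.8 without the 2 libraries farthest from the median of the excitatory sum), so the marker lists cannot be told apart in these libraries. The relations with it were added after those above and adjusted apart, 6 together. Npy1r rose with the thalamus sum (r = 0.92, adjusted permutation p = 0.00018; rho = 0.85, adjusted permutation p = 0.0019), and so did Npy5r (r = 0.85, adjusted permutation p = 0.00147; rho = 0.91, adjusted permutation p = 0.00048). Mc4r fell with it (r = -0.83, adjusted permutation p = 0.00147; rho = -0.86, adjusted permutation p = 0.0019), as did Npy2r (r = -0.63, adjusted permutation p = 0.0339; rho = -0.71, adjusted permutation p = 0.0145). Cartpt had r = -0.26 (adjusted permutation p = 0.402; rho = -0.5, adjusted permutation p = 0.104). Without the 2 farthest libraries r was 0.84, 0.84, -0.89 and -0.56 for Npy1r, Npy5r, Mc4r and Npy2r, and within treatments it was 0.96, 0.91, -0.86 and -0.73. Slc17a6, a glutamate transporter that other excitatory neurons use as well, ran from 6.4 to 288 CPM among these markers. The part of the dissection in the receptor levels, and in their difference between regions, was not tested.

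**Figure D5:**
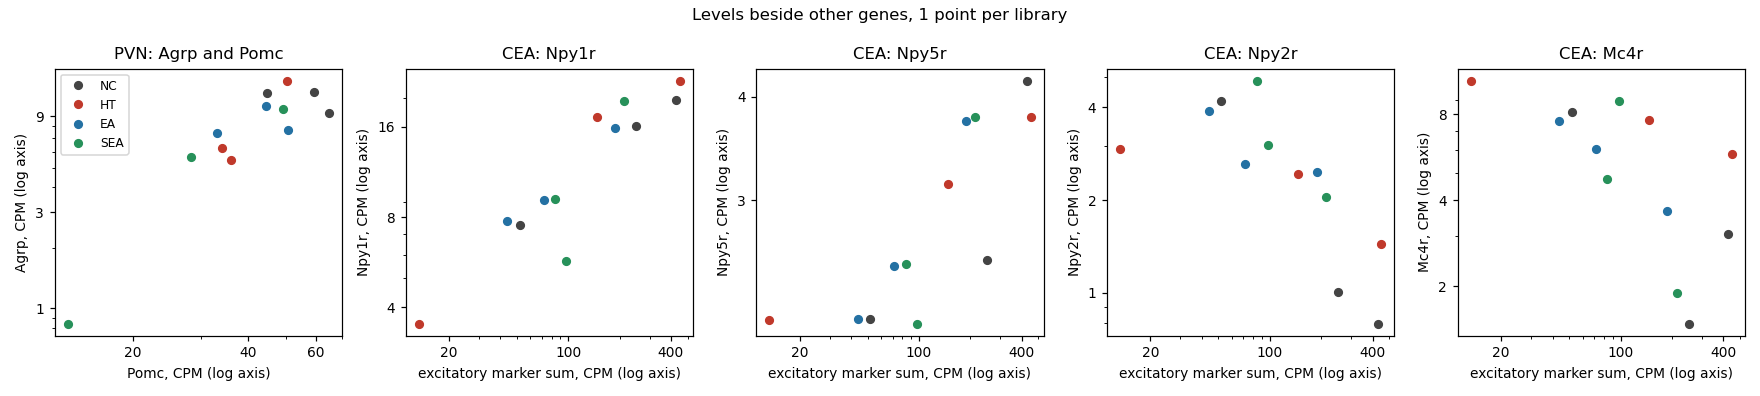
Levels in CPM on log axes, 1 point per library coloured by treatment: Agrp against Pomc in the PVN (first panel), and Npy1r, Npy5r, Npy2r and Mc4r in the CEA against the summed level of 7 markers of excitatory neurons. Npy1r and Npy5r rise with the sum (r = 0.92 and 0.81), and Npy2r and Mc4r lie lower where it is high (r = -0.73 and -0.67).

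The genes whose pattern over the 12 libraries of a region was most like that of a member are given as a description, from 14586 genes ranked in the PVN and 14468 in the CEA. In the PVN they were Pomc, Crym and Fndc3c1 for Agrp (r = 0.92, 0.91 and 0.9), and Sfxn4, Tmem159 and Btg1 for Cartpt (r = 0.92 each). For the receptors in the PVN they were LOC108348083 for Npy1r (r = 0.88), Rbm14 for Npy2r (0.88), Sec11a for Npy5r (0.94) and Brd8 for Mc4r (0.88). In the CEA they were AABR07040887.1, Tchh and Baiap3 for Cartpt (r = 0.94, 0.92 and 0.91), AABR07063279.1 for Npy1r (0.99), Chrm5, a muscarinic receptor, for Npy2r (0.96), Inpp5a for Npy5r (0.96) and Ehbp1l1 for Mc4r (0.94).

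Other genes of feeding circuits were read from a list of 54, of which 53 were in the table. Between the regions, over all treatments, 47 were tested, and 33 were lower and 4 higher in the CEA in edgeR's test at an adjusted p under 0.05, against 29.4% of all genes lower and 56.3% called in either direction. Of the 33, 8 did not pass the filter in the CEA libraries alone and entered through the PVN, Npvf, Sim1 and Mc3r among them. The median log2 fold change of the list was -1.7, against -0.01 over all genes. The smallest p values among those lower in the CEA belonged to Npvf (edgeR adjusted p = 7.01e-17), which encodes RFamide peptides, to Sim1 (-5.3, SE 0.29, adjusted p = 5.29e-13), a transcription factor of the PVN, to Pomc (-3.39, SE 0.21, adjusted p = 3.15e-12) and to the peptide galanin, Gal (-3.84, SE 0.27, adjusted p = 3.08e-11). Npvf held 3395 counts over the PVN libraries and 1 over the CEA libraries, a ratio of 3120 with an exact 95% counting interval of 559 to 123000. Sim1 had 176 to 314 counts in the PVN libraries and 0 to 16 in those of the CEA. Those higher in the CEA were Ramp1 (1.67, SE 0.16), Cckbr (0.89, SE 0.11), Cck (1.06, SE 0.41) and Cpe (0.25, SE 0.05), with edgeR adjusted p values of 3.25e-09 to 0.0332. Of these, Cck encodes cholecystokinin, Cckbr is its receptor and Cpe is an enzyme of peptide processing. Of the melanocortin genes, named after their values were seen, Mc3r, the melanocortin 3 receptor, had -4.2 (SE 0.31, edgeR adjusted p = 7.33e-11) and Mrap2, an accessory protein of Mc4r, -1.17 (SE 0.15, adjusted p = 4.74e-07). No gene of the list passed an adjusted p of 0.05 in edgeR in any treatment comparison or interaction. At an unadjusted p under 0.05 the shares of the list were above those of all genes in CEA EA against HT (5 of 34, 14.7% against 3.19%), CEA SEA against HT (2 of 35, 5.71% against 3.07%), PVN EA against HT (3 of 43, 6.98% against 5.67%) and PVN SEA against HT (2 of 43, 4.65% against 4.38%), in the interaction of the EA effect (7 of 44, 15.9% against 4.52%), in PVN HT against NC (7 of 44, 15.9% against 11%) and in the interaction of the HT effect (6 of 46, 13% against 12.1%). In the test of any difference among treatments the share was below that of all genes in the PVN (6 of 46, 13% against 14.3%) and in the CEA (1 of 39, 2.56% against 3.33%). It was also below it in PVN EA against SEA (1 of 43, 2.33% against 5.21%), CEA HT against NC (0 of 33, against 3.75%) and CEA EA against SEA (0 of 36, against 1.99%). The 5 in CEA EA against HT, named after their values were seen, all had positive estimates with edgeR adjusted p values of 0.93. They were the receptors of galanin, Galr1 (1.76, SE 0.43), of orexin, Hcrtr2 (1.19, SE 0.32), of prolactin-releasing peptide, Prlhr (1.71, SE 0.64), of glucagon-like peptide, Glp1r (1.29, SE 0.54), and of insulin, Insr (0.38, SE 0.15). In CEA SEA against HT the estimates were also positive, 1.56 for Galr1, 0.91 for Hcrtr2, 1.44 for Prlhr and 0.21 for Insr, and Glp1r was not tested. In CEA EA against SEA they were 0.19 for Galr1, 0.28 for Hcrtr2, 0.27 for Prlhr, 0.42 for Glp1r and 0.16 for Insr.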

How the data were processed

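The 24 libraries were grouped by the region and treatment in their titles. The authors mapped reads with HISAT2 and deposited whole-number counts per gene from featureCounts, without normalization; tool versions were not given in the sources used here. The methods name mRatBN7.2 and the processing notes list GRCh38 and hg38, but the largest gene end on chromosome 1, 282724300, exceeds the length of mRatBN7.2 chromosome 1, so the build was not settled. A stray header line inside the table, which exchanges CEA EA replicates 2 and 3, was left out, and the first header was followed. The methods speak of 12 rats for these 24 libraries, but also say that brain samples came from different animals of the same batch. Whether PVN and CEA libraries share rats was therefore not settled. The libraries were treated as independent, and if rats are shared the p-values between regions rest on fewer animals than libraries.

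For each comparison, the libraries of the groups it names were fitted in edgeR 4.0.16 under R 4.3.3 and tested by quasi-likelihood (filterByExpr, TMM, two-sided, Benjamini-Hochberg over all genes, threshold 0.05). The regional comparison over all treatments carried treatment as a term. Alternatives were DESeq2 1.42.0, RLE factors, no filter, the replicate number as a block, a fit of all 4 groups and leaving out each library. Correlations used log2 CPM with a prior count of 2 (0.5 was added to CPM beside marker sums) and 100000 permutations, two-sided. Tested on simulated data, 50.5% of genes changed 2-fold and 93.9% of those changed 4-fold were recovered in PVN HT against NC (16518 genes). In CEA HT against NC (16189 genes) it was 28.3% and 82.5%. False calls were 8 and 11. Counts were drawn independently for each gene and library, without shifts shared by many genes. These shares therefore need not hold for the real libraries.

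The replicate numbers were checked by the correlation of same-numbered libraries after group means were removed. It was over 0.1 in all 3 pairs for CEA HT against NC (0.19 to 0.35) and for CEA against PVN in NC (0.13 to 0.32), so the numbers may pair these libraries, and in no other comparison. The block changed no adjusted call of a member in either; Mc4r in CEA HT against NC reached an unadjusted p under 0.05 with it, and not without it when all libraries were kept.

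For a count of 0 the upper limit was set at 3 counts (0.161 to 0.228 CPM by library), which covers counting error only. The labels do not tie libraries to rats, so p-values measure the spread between these libraries. All 7 members were described. Statistics were given for each tested member between regions and, between treatments, for those with an unadjusted p under 0.05. The 3 genes (receptors: 1) of highest Pearson r with a member and, from the feeding list, the 4 smallest p values in each direction between regions were named. The members and lists were chosen with earlier results of these data known. All 7 symbols matched the RefSeq tables, which were used for promoter sequences on GRCr8; LOC100912228 had no entry. The level of 1 marker gene is not reported here.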

Additional observations from a re-analysis of the deposited data

How the results depend on the processing

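Over the 12 treatment comparisons and interactions, the count of members called was 0 under 151 of 152 alternatives. The exception was the test of any treatment difference in the PVN, where leaving out 1 library gave 0 to 1 members, the 1 being Cartpt without NC replicate 2, where 3732 of 17448 genes (21.4%) were called against 0 with all libraries. The call counts between regions moved by no more than 1 member: 2 to 4 in NC (2 to 3 with 1 library left out) and 5 to 6 over all treatments, where the sixth was Mc4r without CEA NC replicate 2 or CEA SEA replicate 3 (edgeR adjusted p = 0.0226 and 0.0395). Npy2r in NC passed the threshold with RLE factors, without the filter and with DESeq2 (adjusted p = 0.05 after rounding, 0.0341 and 0.00409, beside 0.0503). Mc4r in NC ran from -1.03 to 0.28 with 1 library left out and changed sign without PVN NC replicate 3 (0.06), CEA NC replicate 2 (0.28) or CEA NC replicate 3 (0.06).

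When the replicate block was added, 3 members were called between regions in NC and 5 over all treatments, as without it, and 0 in each treatment comparison. In the other pairwise comparisons of treatments, same-numbered correlations ran from -0.32 to 0.34. The relation of PVN Cartpt with Pomc was -0.11 within treatments against 0.36. That of PVN Npy1r with Npy5r, -0.04, was 0.3 within treatments and -0.22 to 0.13 with 1 library left out, no longer below 0 without NC replicate 1 (0.13), HT replicate 2 (0.0) or HT replicate 3 (0.07). PVN Npy with Agrp ran from 0.45 to 0.65, with a permutation p of 0.0233 without NC replicate 2 and 0.0162 without EA replicate 1, on counts of 0 to 4. PVN Agrp with Pomc ran from 0.74 to 0.95 and CEA Npy1r with Npy5r from 0.85 to 0.92, all with a permutation p under 0.05. The cause of these shifts was not tested. Npy, at 0 to 7 counts in any library, was too shallow for edgeR's filter, and its values in fits without a filter and in correlations rest on these counts.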
